A study of Homo sapiens with 12 samples.

Results

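The 38 genes described here serve protein folding and entry into the secretory pathway in the endoplasmic reticulum (ER). They were taken by symbol from the 60676 genes counted in the series. The rule uses no measured value, but the list was drawn up with earlier results of these data known. It holds 3 transcription factors, 3 sensors of unfolded proteins and 10 chaperones, co-chaperones and other folding factors. It also holds 4 disulfide isomerases, 2 lectin chaperones and 4 genes of ER-associated degradation. A further 7 belong to the translocon and its associated TRAP complex, and 5 to signal peptidase and the oligosaccharyltransferase. All 38 passed the filter on low counts, which left 16192 genes for testing. The cells were A549, an established human lung adenocarcinoma line. Each library came from cells transduced with a lentivirus of the pCDH-EF1a-PURO backbone, selected with puromycin as a population, so the EF1a promoter, the vector and the selection are shared by every group. The 4 groups of 3 libraries were the empty vector (Co.vec) with ligand buffer, Co.vec with TGF-β at 5 ng/mL, LETS1 (a long non-coding RNA) with ligand buffer, and LETS1 with TGF-β at 5 ng/mL, the ligand or buffer being given for 4 h. The level of LETS1 itself was not analysed here. The study calls the replicates biological and does not say that each was transduced separately, so p-values here reflect the spread between samples that may be technical.

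The unfolded protein response has 3 sensors in the ER membrane. IRE1 (encoded by ERN1) splices XBP1 mRNA into the form that encodes an active transcription factor, ATF6 is released by cleavage and enters the nucleus, and PERK (encoded by EIF2AK3) slows translation. Their targets include chaperones, the degradation machinery and XBP1 itself. In secretory epithelia, SPDEF drives mucous cell genes and CREB3L2 drives genes of ER-to-Golgi transport.

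Libraries held 19705135 to 20351043 fragments counted in genes, and replicates varied by a common biological coefficient of variation of 0.0413. The 9 A549 and epithelial markers were all expressed, summing to 19800 to 20500 CPM (counts scaled to a common library size) in LETS1 buffer libraries against 23300 to 24400 in Co.vec buffer libraries, and to 21600 to 22100 against 24200 to 25600 with TGF-β. The sums rest on a few abundant genes, and the 9 did not move together. Their LETS1 differences were negative for 6 and positive for 3 in buffer, and negative for 7 and positive for 2 with TGF-β. LETS1 called 4 lower and 0 higher in buffer and 4 lower and 1 higher with TGF-β (44.4% lower in each, against 6.56% and 6.5% of all genes). Mean CDH1 was 95.9 CPM in Co.vec buffer and 97.6 in LETS1 buffer libraries, and mean CEACAM6 493 and 185. All 5 alveolar markers, all 4 endothelial ones, 4 of 5 leukocyte ones and 4 of 5 plasma cell ones had a mean under 1 CPM, the plasma cell exception being SDC1, which epithelia also express. Of 5 fibroblast markers 4 had a mean under 1 CPM. The other, COL1A1, ran from 13.2 to 13.4 CPM in Co.vec buffer and from 18.6 to 22.3 in LETS1 buffer libraries. With TGF-β it ran from 121 to 129 in Co.vec and from 133 to 150 in LETS1 libraries. LUM averaged 0.248 CPM in Co.vec buffer, 1.14 in LETS1 buffer, 0.324 in Co.vec TGF-β and 1.66 in LETS1 TGF-β libraries. COL1A1 and LUM, the 2 tested, were called higher with LETS1 in both conditions (all genes, 8.57% in buffer and 7.58% with TGF-β). What part these shifts in marker levels have in the results below was not tested.

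Promoter windows from RefSeq (GRCh38.p14; 250 bases before to 50 after a start) were found for 36 of the 38 genes, PDIA3 and SPCS1 having none in the table. They are shown because 7 of the 36 (19.4%) hold the ER stress response element, CCAAT, 9 bases of any kind and CCACG, on either strand, against 0.0916% of 27305 genes and 0.0769% of 35116 windows. Capitals mark the element, 5′ to 3′ on the strand of the gene, with 5 bases on each side.
HSPA5: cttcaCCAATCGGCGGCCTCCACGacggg
XBP1: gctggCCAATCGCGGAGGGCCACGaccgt
PDIA6: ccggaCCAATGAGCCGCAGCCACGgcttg
CANX: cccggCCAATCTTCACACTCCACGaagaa
HSP90B1, distal: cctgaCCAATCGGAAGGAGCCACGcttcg
HSP90B1, proximal: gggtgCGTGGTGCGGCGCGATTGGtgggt
CRELD2: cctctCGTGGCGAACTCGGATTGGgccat
CALR: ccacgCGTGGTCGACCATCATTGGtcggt
The first 5 elements read in the direction of the gene and the last 3 read on the other strand. With their flanks they lie at chr9:125241386-125241414 (HSPA5, minus strand), chr22:28800598-28800626 (XBP1, minus), chr2:10812848-10812876 (PDIA6, minus), chr5:179698773-179698801 (CANX, plus), chr12:103930211-103930239 and chr12:103930316-103930344 (HSP90B1, plus), chr22:49918549-49918577 (CRELD2, plus) and chr19:12938379-12938407 (CALR, plus). The element began 66 bases before the start for HSPA5 and 52 for XBP1.

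Another form of the element, ATTGG, 1 base of any kind and CCACG, on either strand, was searched for after the values had been seen. It was found in the windows of 3 of the 36 genes (8.33%, against 0.0696% of all genes and 0.0541% of all windows), each shown with the match in capitals on the strand of the gene.
HERPUD1: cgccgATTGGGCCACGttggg
HYOU1, proximal: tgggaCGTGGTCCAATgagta
SDF2L1: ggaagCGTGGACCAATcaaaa
These lie at chr16:56932020-56932040 (HERPUD1, plus strand), chr11:119057269-119057289 (HYOU1, minus) and chr22:21642109-21642129 (SDF2L1, plus), and HYOU1 held another match farther from its start. The core TGACGTGG, whose reverse complement contains CCACG, was in 4 of 36, namely DNAJC10, HYOU1, SSR3 and SSR4 (11.1%, against 0.927% of all genes and 0.729% of windows). These matches are descriptions of letters and show no binding. The motifs are known from ER stress genes of this kind, so their shares are no independent result about the set.

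XBP1 (ENSG00000100219, GRCh38 chromosome 22, 28794555 to 28800597) was the most changed of the 38 genes with TGF-β in Co.vec cells, and it was lower in both TGF-β comparisons and both LETS1 comparisons. Its Co.vec buffer libraries read 227, 231 and 243 CPM and its LETS1 buffer libraries 130.5, 133 and 132 CPM. With TGF-β the Co.vec libraries read 103, 106 and 96.2 CPM and the LETS1 libraries 80.9, 80.4 and 79.0 CPM. The 4 groups did not overlap and fell in that order. TGF-β lowered XBP1 by 56.6% in Co.vec cells, -1.20 (SE 0.045, edgeR adjusted p = 1.08e-23) as log2 fold change, and by 39.3% in LETS1 cells, -0.72 (SE 0.046, edgeR adjusted p = 3.21e-16). LETS1 against Co.vec gave -0.83 (SE 0.044, edgeR adjusted p = 5.97e-18) in buffer and -0.34 (SE 0.047, edgeR adjusted p = 6.13e-07) with TGF-β. The ligand response of LETS1 cells minus that of Co.vec cells, the interaction, was 0.48 (SE 0.064, edgeR adjusted p = 6.11e-06). The fall was thus smaller in LETS1 cells, whose level in buffer was lower. Gene counts pool the spliced and unspliced forms of XBP1, which cannot be told apart here.

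SPDEF (ENSG00000124664, GRCh38 chromosome 6, 34537802 to 34556333) was also lower in both LETS1 and both TGF-β comparisons. Co.vec buffer libraries read 52.0, 57.7 and 54.6 CPM and LETS1 buffer libraries 23.8, 27.3 and 24.6 CPM. With TGF-β they read 32.6, 33.3 and 30.8 CPM in Co.vec cells and 19.99, 21.0 and 19.4 CPM in LETS1 cells. No 2 groups overlapped, and the LETS1 buffer libraries lay below the Co.vec libraries given TGF-β. LETS1 lowered SPDEF by 53.9% in buffer (log2 -1.12, SE 0.062, edgeR adjusted p = 1.99e-17) and by 37.5% with TGF-β (log2 -0.68, SE 0.068, edgeR adjusted p = 5.28e-10). TGF-β gave -0.77 (SE 0.061, edgeR adjusted p = 1.35e-13) in Co.vec cells and -0.33 (SE 0.07, edgeR adjusted p = 2.30e-04) in LETS1 cells. The interaction was 0.44 (SE 0.093, edgeR adjusted p = 0.00787), and without LETS1 TGF-β replicate 2 its edgeR adjusted p was 0.0548 (0.000841 to 0.0548 over 16 alternatives). XBP1 and SPDEF were the 2 of 38 members called in the interaction, 5.26%, against 0.679% of all genes tested (0.0803% higher and 0.599% lower).

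CREB3L2 (ENSG00000182158, GRCh38 chromosome 7, 137874979 to 138002067) went the other way in every comparison of 2 groups. Its Co.vec buffer libraries read 87.3, 79.1 and 84.9 CPM and its LETS1 buffer libraries 98.1, 96.7 and 103 CPM. With TGF-β they read 140.2, 130.4 and 158 CPM in Co.vec cells and 169, 176 and 175 CPM in LETS1 cells. The groups rose in that order without overlap. The TGF-β response was 0.77 (SE 0.054, edgeR adjusted p = 8.02e-15) in Co.vec cells and 0.80 (SE 0.053, edgeR adjusted p = 1.49e-15) in LETS1 cells, and the LETS1 effect was 0.25 (SE 0.055, edgeR adjusted p = 0.00113) in buffer and 0.28 (SE 0.052, edgeR adjusted p = 1.37e-04) with TGF-β. The difference between its ligand responses was 0.032 (SE 0.076, edgeR adjusted p = 0.976).

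**Figure D1:**
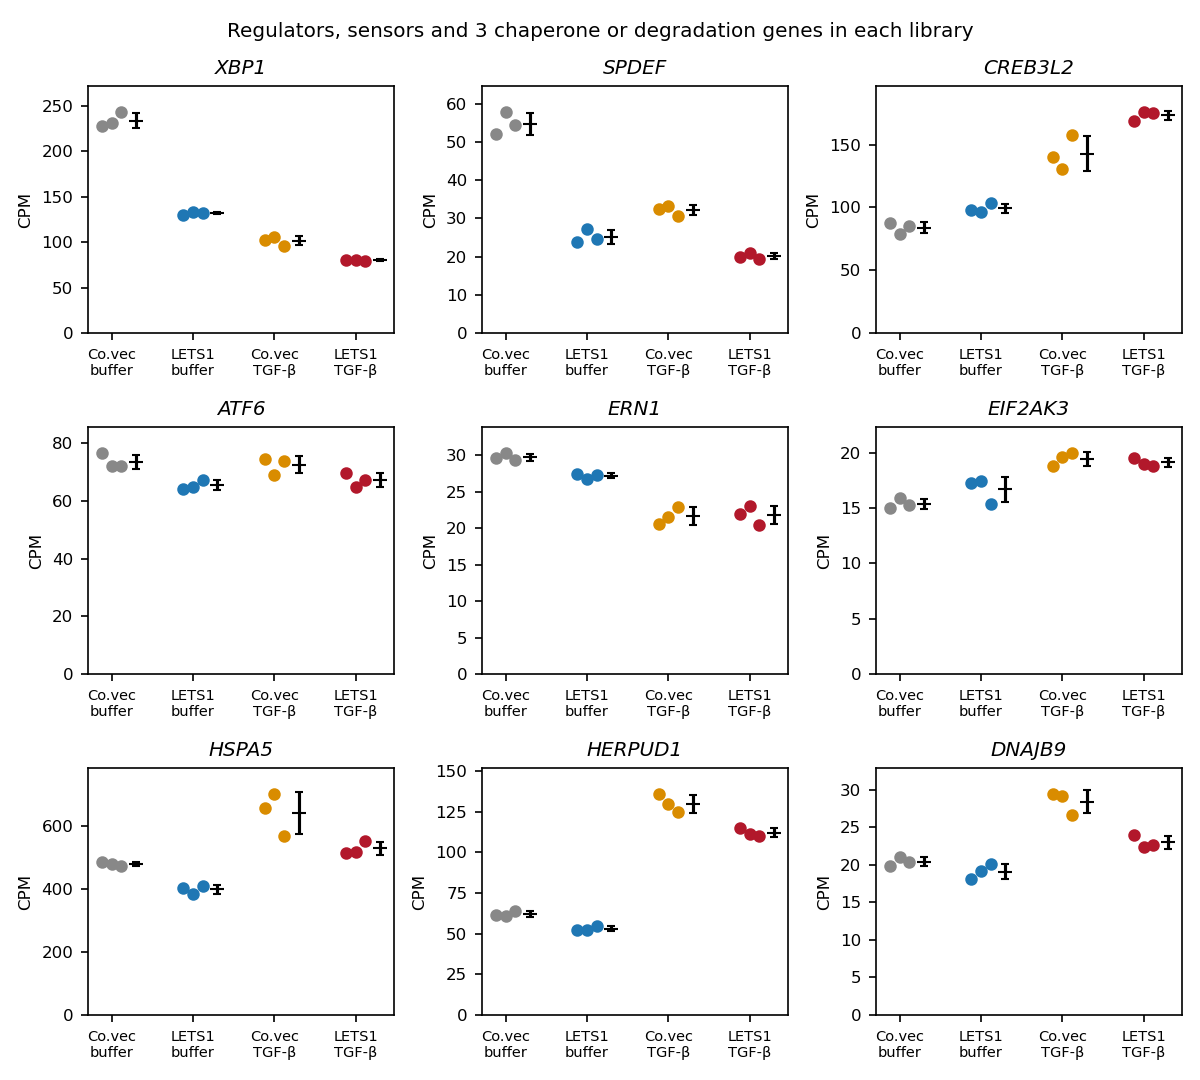
CPM (y axis, from 0) of 9 genes in each of the 12 libraries; points are libraries and the black bar beside them is the mean ± SD (n = 3). XBP1 and SPDEF are highest in Co.vec buffer and lowest in LETS1 TGF-β libraries, CREB3L2 runs the opposite way, and HSPA5 and HERPUD1 are higher with TGF-β and lower with LETS1.

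The 3 sensors did not move together. ERN1, which encodes IRE1 (ENSG00000178607, GRCh38 chromosome 17, 64039142 to 64130819), read 29.6, 30.2 and 29.3 CPM in Co.vec buffer, 27.4, 26.8 and 27.3 in LETS1 buffer, 20.6, 21.5 and 22.9 in Co.vec TGF-β and 22.0, 23.0 and 20.5 in LETS1 TGF-β libraries. It fell with TGF-β in Co.vec cells (log2 -0.46, SE 0.066, edgeR adjusted p = 3.60e-07) and in LETS1 cells (log2 -0.32, SE 0.066, edgeR adjusted p = 1.72e-04), and the TGF-β libraries lay below every buffer library of their vector. EIF2AK3, which encodes PERK (ENSG00000172071, GRCh38 chromosome 2, 88556741 to 88627576), read 15.0, 15.9 and 15.2, 17.2, 17.5 and 15.4, 18.8, 19.6 and 19.9 and 19.5, 19.0 and 18.8 CPM in the same order of groups. It rose with TGF-β in Co.vec cells (log2 0.34, SE 0.075, edgeR adjusted p = 3.68e-04) and in LETS1 cells (log2 0.20, SE 0.074, edgeR adjusted p = 0.0335). The second of these calls was lost without LETS1 buffer replicate 3, LETS1 TGF-β replicate 1 or LETS1 TGF-β replicate 2 and with DESeq2, its edgeR or DESeq2 adjusted p reaching 0.195 (0.0275 to 0.195 over 11 alternatives). ATF6 (ENSG00000118217, GRCh38 chromosome 1, 161766294 to 161964070) read 76.5, 72.0 and 72.0 CPM in Co.vec buffer and 64.1, 64.9 and 67.3 CPM in LETS1 buffer libraries, -0.17 (SE 0.051, edgeR adjusted p = 0.0181). That call was lost without Co.vec buffer replicate 1 or LETS1 buffer replicate 1 or 2 (adjusted p 0.00891 to 0.0911 over 11 alternatives). Its TGF-β differences were -0.017 in Co.vec and 0.04 in LETS1 cells, and neither passed.

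Counted over all 38 genes, TGF-β called 12 higher and 4 lower in Co.vec cells, 42.1% of members against 39.7% of all genes tested. In LETS1 cells it called 11 higher and 3 lower, 36.8% against 38.7%. These shares lie near the background, while the split between directions was 31.6% higher and 10.5% lower in Co.vec cells (all genes, 21.1% and 18.6%) and 28.9% higher and 7.89% lower in LETS1 cells (all genes, 19.7% and 19.1%). The median log2 fold change of the members was 0.0816 in Co.vec and 0.042 in LETS1 cells, beside medians of -0.0175 and -0.0155 over all genes. The 9 genes higher in both were CREB3L2, EIF2AK3, HSPA5, DNAJB9, DNAJC3, MANF, HERPUD1, EDEM1 and SPCS3, and the 3 lower in both were XBP1, SPDEF and ERN1. All but EIF2AK3 and SPCS3 kept both calls in every alternative run. The share of all genes called alike in both vectors is not given here, so these joint counts are descriptions.

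LETS1 against Co.vec called 1 member higher and 9 lower in buffer, and again 1 higher and 9 lower with TGF-β. That is 26.3% of members in each, against 15.1% of all genes tested in buffer and 14.1% with TGF-β, the lower calls were 23.7% of members against 6.56% and 6.5% of all genes, and the higher call 2.63% against 8.57% and 7.58%. The median log2 fold change was -0.0337 in buffer and -0.0685 with TGF-β, beside 0.00998 and -0.000399 over all genes. CREB3L2 was higher in both, and XBP1, SPDEF, HSPA5, DNAJC3, PDIA6, HERPUD1 and SPCS2 were lower in both. Of these 8, CREB3L2, XBP1, SPDEF, HSPA5 and HERPUD1 kept both calls in every alternative run. The share of all genes called alike in both conditions is likewise not given. The count of 10 in buffer fell to 5 without LETS1 buffer replicate 1 and to 5 without LETS1 buffer replicate 2. Over all genes tested, the calls fell too, from 1387 higher and 1062 lower of 16192. They were 1169 higher and 821 lower of 16501 without replicate 1, and 1084 and 813 of 16519 without replicate 2. The excess of members over all genes was therefore smaller without either library. The 2 TGF-β comparisons share no library with each other, nor do the 2 LETS1 comparisons, whereas each LETS1 comparison shares a group with each TGF-β comparison.

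Another count took genes for which the 3 libraries of a group all lay on one side of the 3 of the other. By it, LETS1 placed 4 of the 38 members higher and 14 lower in buffer (all genes, 16.8% and 14.2%, 31.1% either way). With TGF-β, LETS1 placed 2 higher and 12 lower (all genes, 14.5% and 14.2%, 28.8% either way). TGF-β placed 13 higher and 4 lower in Co.vec cells (all genes, 24.4% and 22.9%, 47.2% either way). In LETS1 cells it placed 15 higher and 6 lower (all genes, 24% and 24.9%, 48.9% either way).

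**Figure D2:**
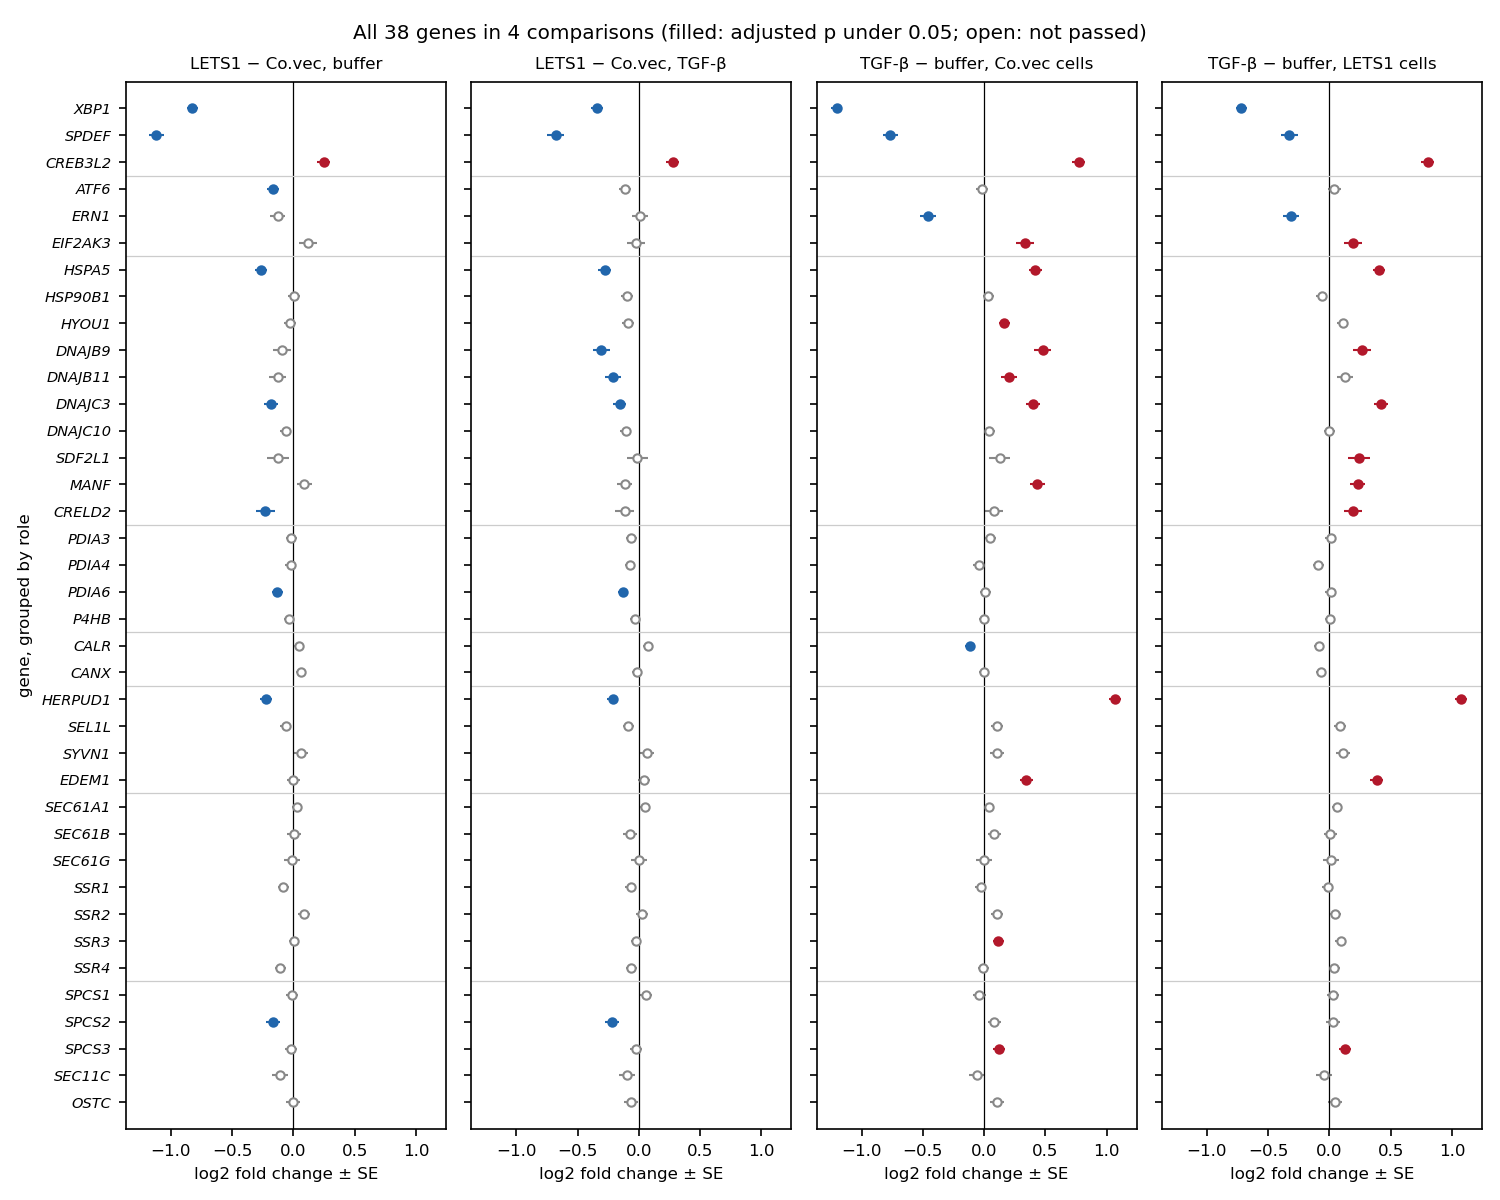
Log2 fold change ± SE (x axis) of all 38 genes (y axis, grouped by role) in the 4 comparisons of 2 groups; filled points passed an edgeR adjusted p of 0.05 (red higher, blue lower) and open points did not. With LETS1, 1 gene is filled red and 9 blue in each panel, and with TGF-β 12 or 11 genes are filled red and 4 or 3 blue.

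Of the 10 chaperones, co-chaperones and other folding factors, 6 rose and 0 fell with TGF-β in each vector. That is 60.0% higher, against 21.1% of all genes tested in Co.vec and 19.7% in LETS1 cells. HSPA5, DNAJB9, DNAJC3 and MANF rose in both vectors, DNAJB11 and HYOU1 in Co.vec cells, and CRELD2 and SDF2L1 in LETS1 cells. LETS1 gave 3 lower in buffer (30.0%, against 6.56% of all genes), 4 lower with TGF-β (40.0%, against 6.5%) and 0 higher in either. HSPA5, which encodes BiP, the main HSP70 of the ER (ENSG00000044574, GRCh38 chromosome 9, 125234853 to 125241330), read 486, 479 and 474 CPM in Co.vec buffer and 404, 383 and 411 CPM in LETS1 buffer libraries. With TGF-β it read 656, 700.0 and 568 CPM in Co.vec and 514, 518 and 553 CPM in LETS1 libraries. The 4 groups did not overlap, although Co.vec TGF-β replicate 3 lay near the LETS1 TGF-β libraries. The TGF-β response was 0.42 (SE 0.052, edgeR adjusted p = 4.79e-08) in Co.vec and 0.41 (SE 0.052, edgeR adjusted p = 1.02e-07) in LETS1 cells, and the LETS1 effect -0.26 (SE 0.052, edgeR adjusted p = 3.11e-04) in buffer and -0.28 (SE 0.052, edgeR adjusted p = 1.76e-04) with TGF-β.

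DNAJC3 and DNAJB9 encode J-domain partners of BiP. DNAJC3 (ENSG00000102580, GRCh38 chromosome 13, 95677139 to 95794989) read 76.1, 67.0 and 64.5 CPM in Co.vec buffer, 61.6, 57.2 and 64.4 in LETS1 buffer, 94.1, 88.3 and 91.1 in Co.vec TGF-β and 82.2, 79.4 and 83.9 in LETS1 TGF-β libraries. It rose with TGF-β by 0.40 (SE 0.055, edgeR adjusted p = 1.39e-07) and 0.42 (SE 0.056, edgeR adjusted p = 5.69e-08) in the 2 vectors. Its LETS1 differences were -0.18 (SE 0.056, edgeR adjusted p = 0.0238) in buffer and -0.16 (SE 0.054, edgeR adjusted p = 0.0473) with TGF-β. The first was lost without Co.vec buffer replicate 1 or LETS1 buffer replicate 1 or 2 (adjusted p 0.0072 to 0.24 over 11 alternatives), and the second with RLE size factors or DESeq2 and without Co.vec TGF-β replicate 1 or 3 or any 1 LETS1 TGF-β replicate (0.0382 to 0.191 over 11). DNAJB9 (ENSG00000128590, GRCh38 chromosome 7, 108569568 to 108574850) read 19.8, 21.0 and 20.4, 18.1, 19.1 and 20.1, 29.4, 29.2 and 26.7 and 23.9, 22.4 and 22.6 CPM in the same order. Its TGF-β response was 0.48 (SE 0.068, edgeR adjusted p = 2.78e-07) in Co.vec and 0.27 (SE 0.07, edgeR adjusted p = 0.00229) in LETS1 cells, and the LETS1 and Co.vec libraries overlapped in buffer but not with TGF-β, where the difference was -0.31 (SE 0.067, edgeR adjusted p = 0.00105). The interaction did not pass for DNAJB9, -0.21 (SE 0.098, edgeR adjusted p = 0.59).

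MANF, DNAJB11 and CRELD2 are further soluble folding factors of the ER. MANF (ENSG00000145050, GRCh38 chromosome 3, 51385047 to 51389397) read 40.4, 40.7 and 41.1 CPM in Co.vec buffer, 42.0, 44.0 and 44.1 in LETS1 buffer, 55.3, 61.1 and 49.0 in Co.vec TGF-β and 52.6, 49.3 and 50.6 in LETS1 TGF-β libraries, and it rose with TGF-β by 0.44 (SE 0.061, edgeR adjusted p = 2.06e-07) and 0.23 (SE 0.061, edgeR adjusted p = 0.00247). The interaction did not pass for MANF, -0.21 (SE 0.087, edgeR adjusted p = 0.503). Its LETS1 difference with TGF-β did not pass, -0.12 (SE 0.06, edgeR adjusted p = 0.216), and passed without Co.vec TGF-β replicate 3, at an adjusted p of 0.0191 (0.0191 to 0.769 over 11 alternatives). DNAJB11 (ENSG00000090520, GRCh38 chromosome 3, 186567403 to 186585800) read 24.9, 26.7 and 24.6, 22.5, 24.6 and 22.6, 30.7, 28.1 and 29.01 and 26.1, 25.3 and 24.7 CPM in the same order, with 0.21 (SE 0.065, edgeR adjusted p = 0.0105) for TGF-β in Co.vec cells and -0.21 (SE 0.065, edgeR adjusted p = 0.0265) for LETS1 with TGF-β. CRELD2 (ENSG00000184164, GRCh38 chromosome 22, 49918167 to 49927540) read 24.6, 25.5 and 26.1, 22.3, 22.1 and 20.7, 26.4, 29.7 and 24.5 and 27.0, 25.3 and 22.0 CPM, with -0.23 (SE 0.076, edgeR adjusted p = 0.0329) for LETS1 in buffer and 0.19 (SE 0.076, edgeR adjusted p = 0.0418) for TGF-β in LETS1 cells. The first DNAJB11 call was lost without Co.vec TGF-β replicate 1 (adjusted p 0.00732 to 0.0538 over 11 alternatives). The second was lost without Co.vec TGF-β replicate 1 or LETS1 TGF-β replicate 2 or 3, with no filter and with DESeq2 (0.0251 to 0.129 over 11). The first CRELD2 call was lost without Co.vec buffer replicate 2 or 3 or any 1 LETS1 buffer replicate and with DESeq2 (0.0108 to 0.15 over 11). The second was lost without any 1 LETS1 buffer replicate or LETS1 TGF-β replicate 1 or 2 and with DESeq2 (0.00546 to 0.224 over 11). HYOU1, a large HSP70 of the ER, passed with TGF-β in Co.vec cells (0.16) and SDF2L1, part of a BiP co-chaperone complex, in LETS1 cells (0.24), the latter call being lost without LETS1 buffer replicate 1 or 2 or LETS1 TGF-β replicate 1 or 2 (adjusted p 0.000724 to 0.155 over 11 alternatives). HSP90B1, which encodes GRP94, and DNAJC10 passed in none.

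The degradation genes held the largest rise of the 38. HERPUD1, a membrane component of the degradation complex (ENSG00000051108, GRCh38 chromosome 16, 56932048 to 56944863), read 61.4, 60.8 and 63.9 CPM in Co.vec buffer and 52.4, 52.0 and 54.9 CPM in LETS1 buffer libraries. With TGF-β it read 136, 129.7 and 125 CPM in Co.vec and 115, 111 and 109.9 CPM in LETS1 libraries. The groups did not overlap. TGF-β raised it 2.09-fold in Co.vec cells (log2 1.07, SE 0.048, edgeR adjusted p = 4.30e-21) and 2.11-fold in LETS1 cells (log2 1.08, SE 0.049, edgeR adjusted p = 6.63e-21), and LETS1 lowered it by 14.4% in buffer (log2 -0.22, SE 0.051, edgeR adjusted p = 0.00132) and 13.7% with TGF-β (log2 -0.21, SE 0.046, edgeR adjusted p = 8.53e-04). EDEM1, which passes misfolded glycoproteins on for degradation (ENSG00000134109, GRCh38 chromosome 3, 5187646 to 5219957), read 75.7, 70.7 and 66.0 CPM in Co.vec buffer, 70.5, 70.3 and 71.5 in LETS1 buffer, 93.6, 89.9 and 86.4 in Co.vec TGF-β and 92.3, 90.5 and 94.7 in LETS1 TGF-β libraries. It rose with TGF-β by 0.34 (SE 0.051, edgeR adjusted p = 4.93e-07) and 0.39 (SE 0.051, edgeR adjusted p = 4.73e-08), and its LETS1 differences did not pass (-0.00055 and 0.04). SEL1L and SYVN1, which form the core ubiquitin ligase, passed in none, with TGF-β differences between 0.087 and 0.11.

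Disulfide isomerases, which form and shuffle disulfide bonds, and lectin chaperones, which hold glycoproteins, changed little. None of the 4 isomerases passed with TGF-β in either vector (0.0%, against 39.7% of all genes tested in Co.vec and 38.7% in LETS1 cells). Their log2 fold changes ran from -0.0434 to 0.0516 in Co.vec and from -0.09 to 0.0111 in LETS1 cells. LETS1 called 1 of the 4 lower in each condition (25.0%, against 6.56% and 6.5% of all genes). PDIA6 was lower with LETS1 in buffer (log2 -0.13, SE 0.044, edgeR adjusted p = 0.0364) and with TGF-β (log2 -0.13, SE 0.044, edgeR adjusted p = 0.0423). The first of these calls was lost without Co.vec buffer replicate 2 or 3 or any 1 LETS1 buffer replicate and the second without Co.vec TGF-β replicate 2 or LETS1 TGF-β replicate 1 or 2, with no filter and with the 6 libraries alone (adjusted p 0.0103 to 0.153 and 0.017 to 0.222 over 11 alternatives each). CALR (calreticulin) was lower with TGF-β in Co.vec cells (log2 -0.11, SE 0.041, edgeR adjusted p = 0.0274), a call lost without Co.vec buffer replicate 2 or 3 or Co.vec TGF-β replicate 1 or 3, with no filter and with the 6 libraries alone (adjusted p 0.0134 to 0.137 over 11 alternatives), and CANX (calnexin) passed in none. The 7 members with the ER stress response element in their windows were split with TGF-β in Co.vec cells: HSPA5 rose, and XBP1 and CALR fell. There CANX, CRELD2, HSP90B1 and PDIA6 did not pass, their differences lying between 0.002 and 0.079. In LETS1 cells TGF-β raised HSPA5 and CRELD2 and lowered XBP1. LETS1 lowered HSPA5, XBP1, CRELD2 and PDIA6 in buffer (6.56% of all genes lower) and HSPA5, XBP1 and PDIA6 with TGF-β (6.5%). The rest of the 7 did not pass in those comparisons.

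Entry and cleavage genes gave few calls. Of the 7 translocon and TRAP genes, which carry nascent chains across the membrane, 0 passed with LETS1 in either condition, 1 with TGF-β in Co.vec cells (SSR3, 0.12 (SE 0.043, edgeR adjusted p = 0.0282)) and 0 in LETS1 cells. The SSR3 call was lost without Co.vec buffer replicate 2 or 3 or Co.vec TGF-β replicate 1 (adjusted p 0.00764 to 0.131 over 11 alternatives). Over the 7, log2 fold changes lay between -0.107 and 0.116 in the 4 comparisons. Among 5 genes of signal peptidase and the oligosaccharyltransferase, SPCS3 rose with TGF-β in both vectors (0.12 and 0.13), calls lost under 8 and 6 of 11 alternatives, among them the omission of Co.vec buffer replicate 2 or 3, Co.vec TGF-β replicate 1 or 2, any 1 LETS1 buffer replicate or LETS1 TGF-β replicate 2 or 3 and, for Co.vec cells, DESeq2, no filter and the 6 libraries alone (adjusted p 0.0132 to 0.142 and 0.0175 to 0.14). SPCS2, a signal peptidase subunit (ENSG00000118363, GRCh38 chromosome 11, 74949247 to 74979031), read 81.1, 77.6 and 78.2 CPM in Co.vec buffer, 70.5, 68.3 and 72.1 in LETS1 buffer, 80.8, 91.5 and 78.9 in Co.vec TGF-β and 67.0, 70.5 and 78.2 in LETS1 TGF-β libraries, and was lower with LETS1 by -0.17 (SE 0.056, edgeR adjusted p = 0.0355) and -0.22 (SE 0.056, edgeR adjusted p = 0.00502). The first call was lost with DESeq2 and without any 1 of the 6 libraries, and the second without Co.vec TGF-β replicate 2 or LETS1 TGF-β replicate 1 (adjusted p 0.0071 to 0.134 and 0.000644 to 0.0824 over 11 alternatives each). SPCS2 has 4 annotated pseudogenes by name, to which some of its reads may have gone. SPCS1, SEC11C and OSTC passed in none, so that 17 of the 38 genes passed in none of the 5 contrasts. The share of all genes that passed in none is not given here, so that count is only a description.

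Set against each other, the ligand responses of Co.vec and LETS1 cells had Pearson r = 0.946 over the 38 genes (0.841 over the 16192 genes tested), and 31 of 38 had the same sign (80.9% of all genes). The LETS1 effects in buffer and with TGF-β had r = 0.859 over the 38 (0.708 over all genes tested), and 28 of 38 had the same sign (69.3% of all genes). Without XBP1, SPDEF, CREB3L2 and HERPUD1 the first r was 0.905 and the second 0.636 over the other 34 genes. These are descriptions over genes measured in the same libraries.

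**Figure D3:**
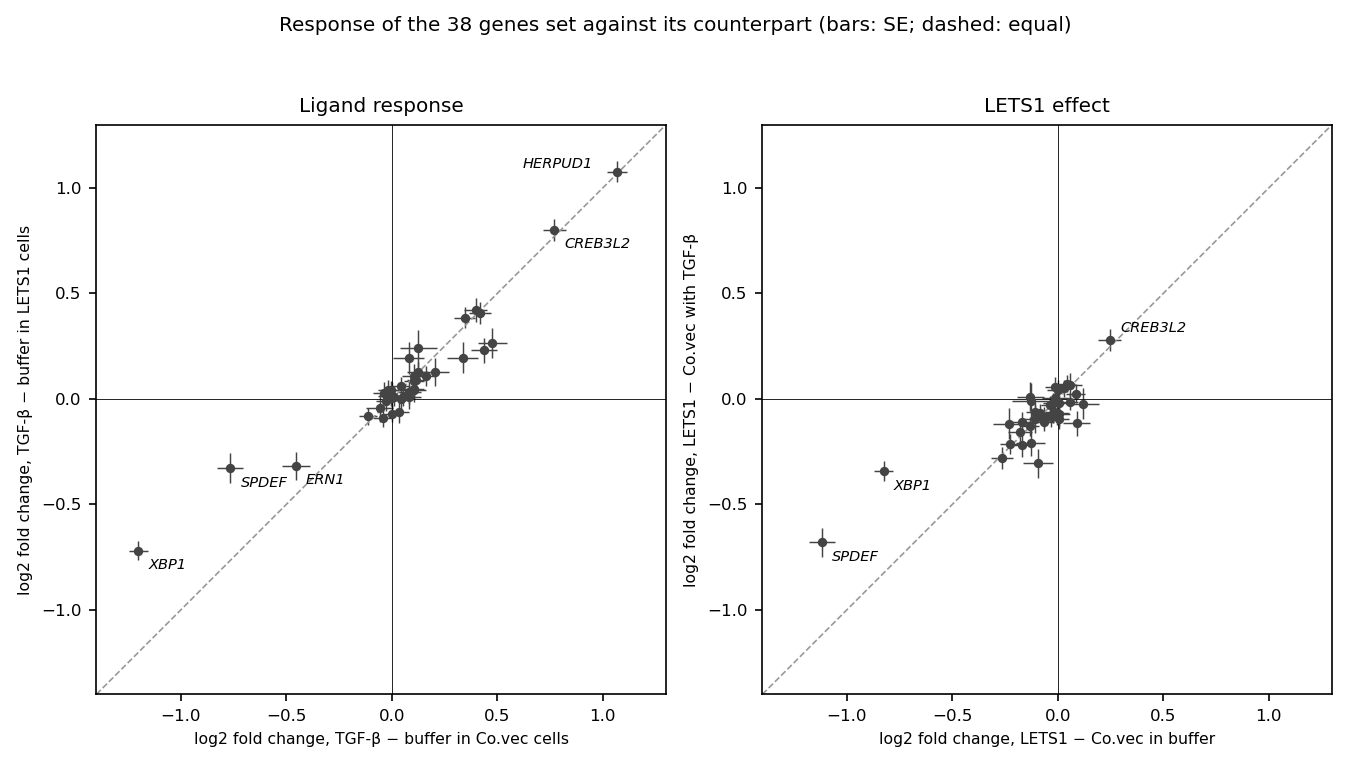
Left, the TGF-β response in LETS1 cells (y axis) against that in Co.vec cells (x axis); right, the LETS1 effect with TGF-β (y) against that in buffer (x), as log2 fold changes with SE bars for 38 genes. XBP1 and SPDEF lie off the dashed line of equal change in both panels, nearer 0 on the y axis, while CREB3L2 and, at left, HERPUD1 lie on or beside it.

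Levels between genes were compared per kilobase of annotated exon. In Co.vec buffer libraries CANX (165 ± 3.87 CPM per kb, SD, n = 3) and CALR (145 ± 2.83) led, followed by P4HB (131.5 ± 3.93) and HSP90B1 (128 ± 2.92), which did not differ beyond their spread, and HSPA5 (123 ± 1.5). ERN1 (2.73 ± 0.0438) and EIF2AK3 (2.83 ± 0.0855) were lowest. On this scale XBP1 went from 77.2 ± 2.67 in Co.vec buffer, 7th of 38, to 26.5 ± 0.312 in LETS1 TGF-β libraries, 14th of 38, and SPDEF from 28.6 ± 1.51, 15th, to 10.5 ± 0.422. HSPA5 in Co.vec TGF-β libraries reached 164 ± 17.2, beside 165 ± 0.501 for CANX. The order depends on the length used: with the longest transcript in place of all exons P4HB was 1st, at 268 CPM per kb.

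**Figure D4:**
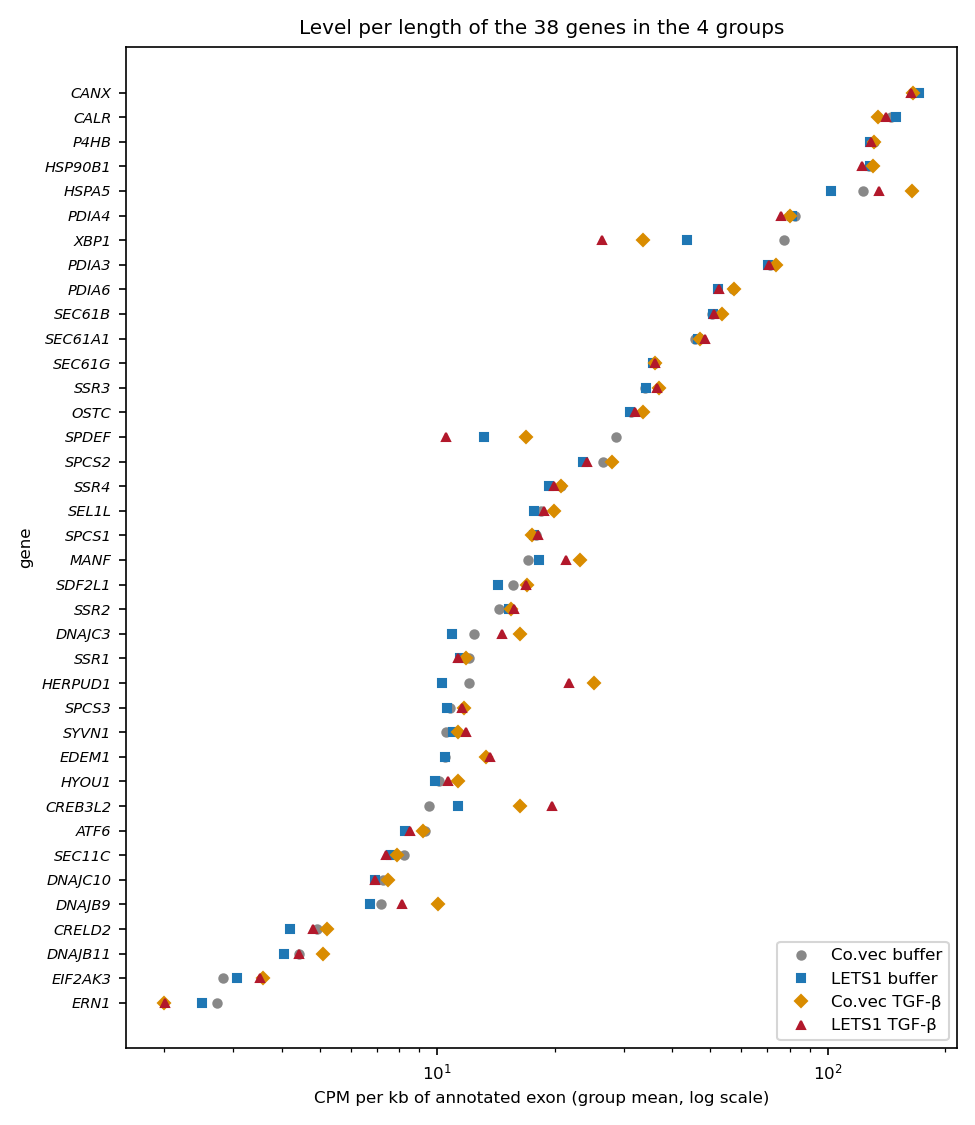
Mean CPM per kb of annotated exon (x axis, log scale) of the 38 genes (y axis, ordered by the Co.vec buffer value), with 1 symbol for each of the 4 groups. Symbols lie close together for most genes and spread for XBP1, SPDEF, HERPUD1 and CREB3L2.

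Lists of 133 further genes of the pathway, written from general knowledge, placed the members among their neighbours. Their shares of calls are read against all genes tested, of which TGF-β called 39.7% in Co.vec and 38.7% in LETS1 cells and LETS1 called 15.1% in buffer and 14.1% with TGF-β. Of 24 other folding enzymes tested, TGF-β called 6 higher and 1 lower in Co.vec and 8 higher and 0 lower in LETS1 cells. Among them were SDF2, a relative of SDF2L1 (0.56 and 0.44), and ERO1B, a disulfide oxidase (0.36 and 0.43). Calls in either direction were 29.2% and 33.3%, both under the share of all genes. Of the 24 enzymes, 25.0% and 33.3% were higher (all genes, 21.1% and 19.7%) and 4.17% and 0.0% lower (all genes, 18.6% and 19.1%). LETS1 called 0 higher and 2 lower of these in buffer and 0 and 3 with TGF-β (8.33% and 12.5%), CLGN, a testis relative of calnexin, in both (-0.25 and -0.37), the first call being lost without Co.vec buffer replicate 2 or 3 or LETS1 buffer replicate 1 or 3 (adjusted p up to 0.104). Of 18 other degradation genes TGF-β called 4 higher and 3 lower in Co.vec and 5 and 2 in LETS1 cells (38.9% in each, near the share of all genes), among them SELENOS (0.43 and 0.47). LETS1 called 1 higher and 3 lower of these in buffer and 1 and 5 with TGF-β (22.2% and 33.3%), ERLEC1, an ER lectin, in both (-0.27 and -0.19), the second call being lost without Co.vec TGF-β replicate 2 (adjusted p 0.0809).

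Among 30 genes of COPII coats and ER-Golgi carriers TGF-β called 5 higher and 4 lower in Co.vec and 7 and 2 in LETS1 cells (30.0% in each), YIPF5 most (0.74 and 0.75), and LETS1 called 1 and 4 in buffer and 1 and 2 with TGF-β (16.7% and 10.0%). Among 18 other translocation genes TGF-β called 2 higher and 4 lower in Co.vec and 1 and 2 in LETS1 cells (33.3% and 16.7%), and LETS1 called 1 higher and 1 lower in each condition (11.1%). The gene higher with LETS1 was TRAM1, a translocating chain protein, which read 755, 728 and 749 CPM in Co.vec buffer and 999.6, 1005 and 994 CPM in LETS1 buffer libraries (log2 0.43, SE 0.039, edgeR adjusted p = 4.63e-11). Of 12 other oligosaccharyltransferase and signal peptidase genes, TGF-β called 0 in Co.vec cells and 1 lower in LETS1 cells (8.33%), and LETS1 called 1 higher in buffer (8.33%) and 2 lower with TGF-β (16.7%).

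Of 14 other regulators of the unfolded protein response, LETS1 called 4 higher and 0 lower in buffer and 2 and 0 with TGF-β (28.6% and 14.3%, against 15.1% and 14.1% of all genes). TGF-β called 5 and 1 in Co.vec and 2 and 2 in LETS1 cells (42.9% and 28.6%, against 39.7% and 38.7%). PPP1R15A, which encodes GADD34, the phosphatase subunit that ends the PERK signal, read 55.6, 57.2 and 58.2 CPM in Co.vec buffer and 96.4, 93.0 and 98.8 CPM in LETS1 buffer libraries. With TGF-β it read 68.7, 69.0 and 66.1 and 69.2, 64.4 and 66.7 CPM, where the vectors overlapped. The LETS1 effect was 0.75 (SE 0.049, edgeR adjusted p = 2.38e-15) in buffer, and TGF-β gave 0.25 (SE 0.05, edgeR adjusted p = 7.46e-05) in Co.vec and -0.52 (SE 0.048, edgeR adjusted p = 9.75e-12) in LETS1 cells. ATF4, the transcription factor downstream of PERK, rose with TGF-β in both (0.23 and 0.28). In Co.vec cells its groups overlapped, TGF-β replicate 3 reading 219 CPM and buffer replicate 3 reading 223 CPM.

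Of 12 tested genes linked with SPDEF in mucous cells, 10 were lower with LETS1 in buffer, 9 with TGF-β, 9 lower with TGF-β in Co.vec and 7 in LETS1 cells, and 0 were higher in any of these. The lower shares were 83.3%, 75.0%, 75.0% and 58.3%, against 6.56%, 6.5%, 18.6% and 19.1% of all genes tested. Their median log2 fold changes were -0.992, -0.778, -0.355 and -0.291 in that order. MUC5AC, a gel-forming mucin, read 422, 412 and 412 CPM in Co.vec buffer, 109, 115 and 106 in LETS1 buffer, 309, 316 and 323 in Co.vec TGF-β and 84.4, 83.3 and 77.2 in LETS1 TGF-β libraries, with -1.92 (SE 0.045, edgeR adjusted p = 8.62e-30) for LETS1 in buffer. FOXA3, a transcription factor of mucous cells, read 9.59, 10.4 and 8.47, 4.10, 5.30 and 4.54, 2.93, 2.47 and 2.41 and 2.31, 1.56 and 1.78 CPM in that order, with -1.86 (SE 0.14, edgeR adjusted p = 2.06e-14) for TGF-β in Co.vec cells. These lists were chosen with earlier results of these data known, and their counts are descriptions.

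The 38 genes together made up 0.646% of counts in Co.vec buffer, 0.621% in LETS1 buffer, 0.672% in Co.vec TGF-β and 0.642% in LETS1 TGF-β libraries. In each group the library most often lowest was so for 16 to 19 of the 38 genes, namely Co.vec buffer replicate 1 (50.0%, against 35.8% of all genes tested), LETS1 buffer replicate 2 (47.4%, against 34.6%), Co.vec TGF-β replicate 3 (47.4%, against 36.0%) and LETS1 TGF-β replicate 1 (42.1%, against 34.5%). LETS1 buffer replicate 3 was the highest of its group for 19 (50.0%, against 36.5%). Their part in the results, beside the values given above without them, was not tested. In 27 of the 38 genes another annotated gene overlaps, on the opposite strand in 23, and without a known strand setting reads of both cannot be told apart.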

How the data were processed

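Fragments were counted per gene by the authors; the deposited values are raw counts in 60676 gene rows for 12 libraries. Per the submitters' processing notes, the tools included FastQC, cutadapt 2.10, STAR 2.7.5a and HTSeq 0.12.4, with GRCh38. The counting's strand setting and annotation release were not given in the sources used here. A gene name table gave symbols for 60357 genes, and GENCODE (GRCh38) gave positions and lengths.

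Genes were filtered with filterByExpr of edgeR 4.0.16 (R 4.3.3), which left 16192. After TMM scaling, the 12 libraries entered a single robust quasi-likelihood model with a mean for each group, and p-values were adjusted by Benjamini-Hochberg over all 16192 genes in each of 5 contrasts. The threshold for a call was an adjusted p of 0.05. CPM were computed from the counts with TMM-scaled library sizes, and each SE from the log2 fold change and its F statistic. The model was tested on simulated data. Intervals and floors for counting error are not given, since every gene described had counts in all 12 libraries. Library depth was 19705135 to 20351043 counts.

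The members and lists were chosen with earlier results of these data known. Values in every library are given for the 3 transcription factors, the 3 sensors, HSPA5 and, in each comparison of 2 groups, the 8 called members of largest change. From each pathway list up to 3 called genes per comparison could be named. Alternatives were RLE size factors, no filter, a replicate block, each library left out, the 6 compared libraries alone and DESeq2 1.42.0, and the longest transcript for levels per kb.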

Additional observations from a re-analysis of the deposited data

Results flagged for a closer look

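The response to TGF-β differed between LETS1 and Co.vec cells, by the interaction term of the edgeR model, for 2 of the 38 genes and for 1 gene of the pathway lists. For XBP1 the difference (LETS1 minus Co.vec, log2) was 0.48 and for SPDEF 0.44, each fall being smaller in LETS1 cells. For PPP1R15A it was -0.78, with a rise in Co.vec cells and a fall in LETS1 cells. All 3 also differed between LETS1 and Co.vec in the libraries given buffer for 4 h.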

How the results depend on the processing

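No called value of the 21 members called in any contrast changed direction under any alternative run. Of their 52 calls, 34 were kept in every alternative and 18 were lost in at least 1. Leaving out 1 library in turn, the members called numbered 5 to 7 for LETS1 in buffer (10 with all libraries), 7 to 11 for LETS1 with TGF-β (10), 13 to 17 for TGF-β in Co.vec cells (16), 10 to 13 for TGF-β in LETS1 cells (14) and 1 to 2 for the interaction (2). The lowest counts for LETS1 in buffer came without LETS1 buffer replicate 1 or 2, and for the interaction without LETS1 TGF-β replicate 2, where SPDEF was lost. Calls over all genes also fell in those fits. With RLE size factors, no filter, DESeq2, the replicate block and the 6 libraries alone (not for the interaction, which needs all 4 groups) the counts were 8 to 10, 8 to 9, 14 to 16, 12 to 15 and 2. Same-numbered replicates did not deviate together (0 of 18 pairs correlated above 0.1, from -0.0573 to 0.0472). The replicate block gave 9, 9, 15, 13 and 2 calls, and of the members' calls it left out PDIA6 with LETS1 in buffer and with TGF-β and SPCS3 with TGF-β in both vectors (edgeR adjusted p 0.054, 0.0603, 0.0596 and 0.0556 in that order). Levels per kb moved by more than 1 SD with the longest transcript for 35 of the 38 genes. Where no difference passed, this depth and number of libraries did not show that there was none.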
